A study of Bos taurus with 8 samples.

Results

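The genes described here are TNF (ENSBTAG00000025471), LTA (ENSBTAG00000000016), LTB (ENSBTAG00000020674) and TNFAIP6 (ENSBTAG00000007239), 4 of the 21861 genes in the scRNA-seq tables. They were found by gene name in the scRNA-seq tables and by the same identifiers in the scATAC-seq tables. They were selected on earlier results of these libraries, in which their levels by LPS time and cell class were already known, so their levels and ratios are given as a description with no test. Whole blood of 4 female Holstein cattle aged 2 years was pooled and divided into a part without LPS (lipopolysaccharide, a bacterial cell wall component) and 3 parts with LPS at 2 µg/ml (kept for 2, 4 or 8 h), after which peripheral blood mononuclear cells were isolated. Each treatment gave 1 scRNA-seq and 1 scATAC-seq library, so differences between treatments come without replicates, and the 3 LPS times share 1 no LPS library. Values are given in the order no LPS, 2 h, 4 h and 8 h, and ratios to no LPS in the order 2 h, 4 h and 8 h, unless times are named. The time that the part without LPS spent in incubation is not given in the sources used here. In every ratio to no LPS, the effect of LPS, the time in incubation and the library cannot be told apart.

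TNF encodes tumor necrosis factor, a cytokine made as a membrane protein and shed from the cell surface, and monocytes and macrophages are its best known source after LPS. LTA encodes lymphotoxin alpha, which is secreted as a homotrimer or held at the membrane in a heterotrimer with lymphotoxin beta, the product of LTB. The 3 genes are neighbours in the same cluster of the cattle genome, where the RefSeq gene table lists LTB next to TNF and 1 uncharacterised gene between TNF and LTA. TNFAIP6 encodes a secreted hyaluronan-binding protein that TNF and interleukin 1 induce in many cells, and it is not a member of the TNF family.

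Cells were kept with 200 to 3000 genes, at least 200 UMIs (unique molecular identifiers, 1 per captured transcript) and under 20% mitochondrial UMIs. This left 7821, 9865, 7387 and 3411 cells, with a median of 3997 to 4757 UMIs per cell. A cell was placed in a gate when exactly 1 marker was positive: CD14 (monocytes) at 3 or more UMIs, or CD3E (T cells), MS4A1 (B cells) or NCR1 (NK cells) at 1 or more. The CD14 gate held 645, 279, 102 and 47 cells, the CD3E gate 3640, 5012, 3899 and 1659, the MS4A1 gate 1771, 2445, 1930 and 744, and the NCR1 gate 63, 99, 91 and 39. All 8 monocyte markers on a separate list had UMIs in the CD14 gate of every library. Their summed level in the CD3E gate was 0.571% to 1.34%, and in the MS4A1 gate 1.2% to 2.48%, of that in the CD14 gate. Summed T cell markers in the MS4A1 gate were at 4.45% to 8.93%, and in the NCR1 gate at 46.3% to 52.2%, of their CD3E gate level. In the NCR1 gate that sum did not cover the whole list, and CD28 had no UMI there in any library. The libraries shared 8 to 24 barcodes per pair, at most 0.363% of the smaller library. Levels are UMIs summed over the cells of a gate and scaled to a total of 1000000 for that gate (CPM). Intervals are 95% intervals (exact Poisson for levels, exact conditional for ratios, Clopper-Pearson for shares) and cover counting error only, and they are too narrow where a few cells hold most UMIs. In such sums, fewer expressing cells and less RNA per cell cannot be told apart, so the number of cells behind the UMIs is given as well.

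In CD14-gated cells TNF was present without LPS and highest at 2 h. Its level was 70.9 CPM (64.6 to 77.6), 158 (145 to 172), 102 (83.8 to 122) and 139 (110 to 172). The interval without LPS did not overlap that of any LPS library. Ratios to no LPS were 2.23 (1.97 to 2.53), 1.44 (1.16 to 1.77) and 1.96 (1.53 to 2.48). The 4 h value rested on 1 cell that held 42 of the 112 UMIs. Without the cell with the most TNF UMIs in each library, the levels were 66.8, 144, 64.6 and 100 CPM, so that the 4 h library was no longer above no LPS. TNF UMIs were gathered in a small part of the gate in all 4 libraries. At least 50% of them lay in 31, 15, 4 and 3 cells, or 4.81%, 5.38%, 3.92% and 6.38% of the gate.

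The share of CD14-gated cells with a TNF UMI was 29.0%, 42.7%, 38.2% and 29.8%. Median depth in this gate was 10729, 13466, 12040 and 15172 UMIs. With each cell thinned to 2000 UMIs, which left out 90, 28, 20 and 5 shallower cells, the shares were 11.1%, 19.7%, 13.5% and 14.4%. TNF was thus detected in a minority of CD14-gated cells in every library. In the MS4A1 gate, the class with the lowest TNF level without LPS, the thinned shares were 0.936%, 2.56%, 1.42% and 2.39%.

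**Figure D1:**
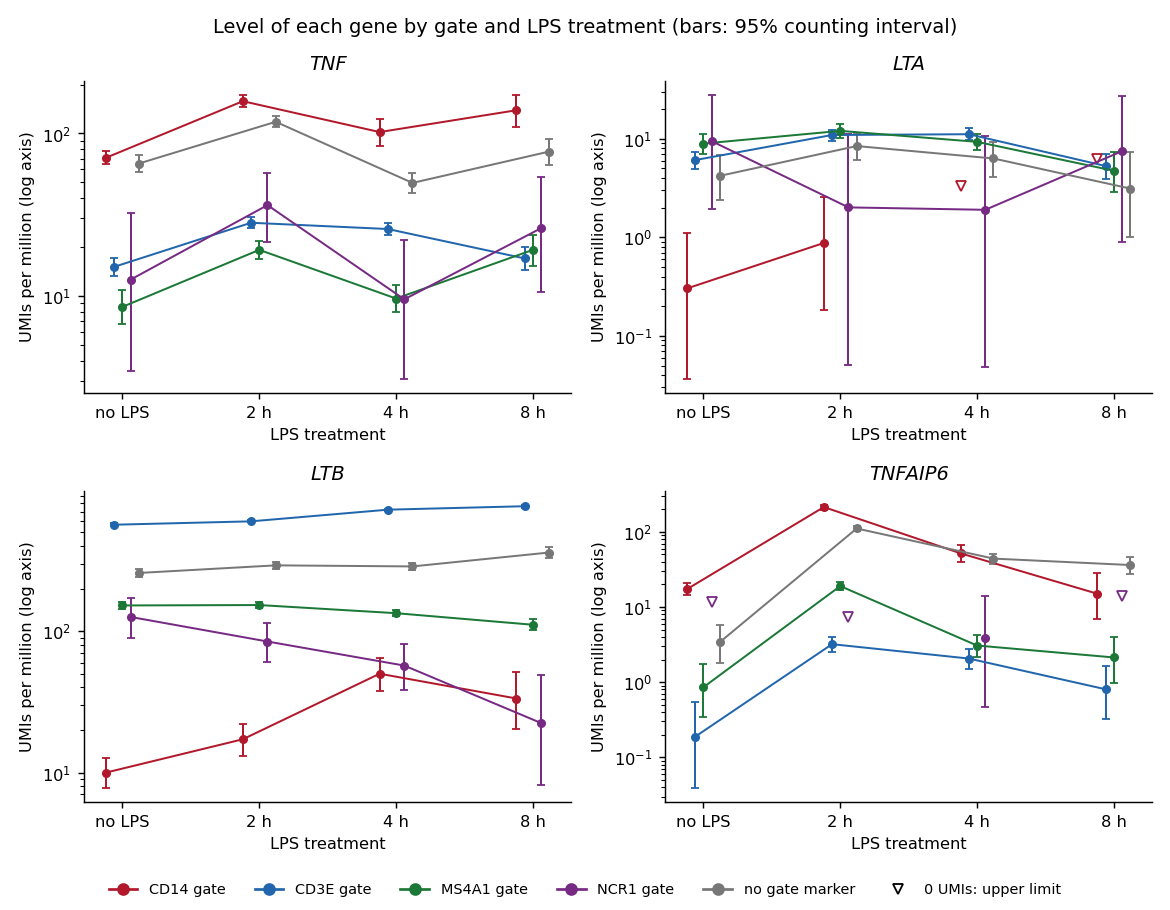
Level of TNF, LTA, LTB and TNFAIP6 in CPM (log axis) against LPS treatment for the CD14, CD3E, MS4A1 and NCR1 gates and for cells with none of the 4 markers. Points are single libraries, bars are 95% counting intervals and open triangles mark the upper limit where no UMI was found. TNF and TNFAIP6 were highest at 2 h in the CD14 gate (158 and 214 CPM), and LTB was highest in the CD3E gate in all 4 libraries.

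TNFAIP6 at 2 h was the largest ratio of the 4 genes in this gate. In CD14-gated cells it was at 17.3 CPM (14.3 to 20.8), 214 (198 to 230), 51.8 (39.2 to 67.1) and 15.0 (6.87 to 28.5). The 2 h level lay above every other library, and the 8 h interval overlapped that without LPS. Ratios to no LPS were 12.3 (10.1 to 15.2), 2.99 (2.14 to 4.15) and 0.869 (0.387 to 1.71). At 2 h it ranked 12th from the top of the 7660 genes compared in this gate. The share of cells with a UMI was 7.29%, 42.7%, 23.5% and 14.9%, or 2.66%, 22.1%, 10.9% and 2.69% after thinning. At 8 h the value rested on 9 UMIs in 7 cells. Markers of neutrophils (CSF3R, CXCR1, CXCR2 and MMP8) were also higher in this gate after LPS, at 9.56, 45.9, 131 and 25.1 CPM in sum. MMP8 was at 0 in every library, here and in the CSF3R-positive cells described below. The part of neutrophils in the TNFAIP6 levels of this gate was not tested. The summed level of the monocyte markers was 4878, 2665, 2512 and 3646 CPM. When monocytes were taken instead by at least 3 of the 8 monocyte markers without CD3E, MS4A1 or NCR1 (a definition added with the data in view), TNFAIP6 was at 16.8, 191, 23.1 and 14.1 CPM. The 2 h excess was present in both definitions, while the 4 h ratio to no LPS was much smaller in the second.

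**Figure D2:**
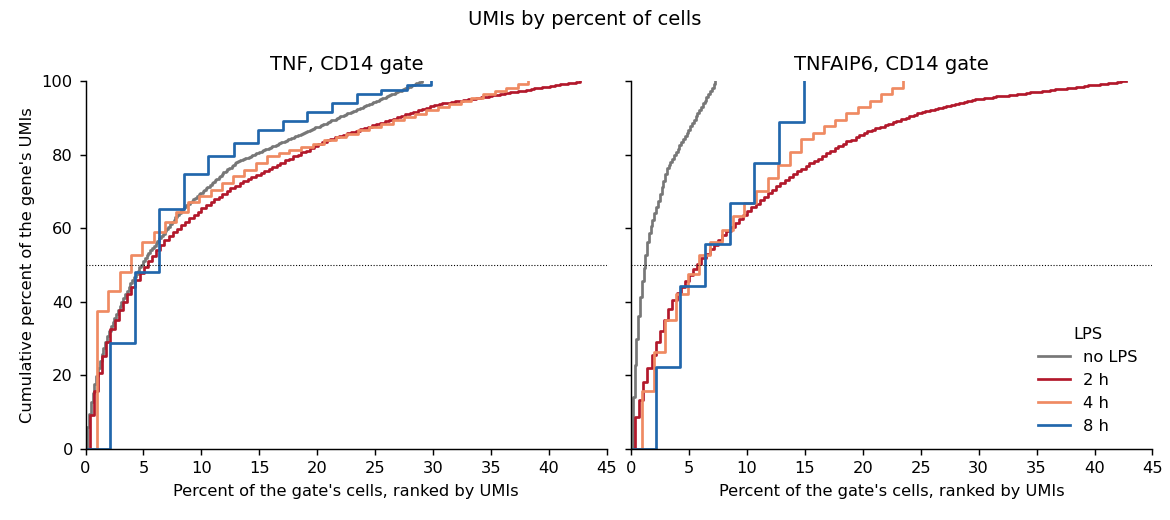
Cumulative percent of the TNF (left) and TNFAIP6 (right) UMIs of the CD14 gate against the percent of the gate's cells, ranked from the cell with the most UMIs, 1 line per library. For TNF all 4 lines pass the dotted level of 50% between 3.92% and 6.38% of the cells, and the first step at 4 h is the cell with 42 UMIs.

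A call, used to set the 4 genes against all others, was a difference of at least 2-fold on log2(CPM + 1) among genes with at least 20 UMIs over both libraries. In the CD14 gate TNF, TNFAIP6 and LTB passed this minimum at each time and LTA did not. At 2 h TNF and TNFAIP6 were at least 2-fold higher, against 4.11% of all genes, and none of the 4 was at least 2-fold lower, against 22.3%. At 4 h LTB and TNFAIP6 were at least 2-fold higher, with 5.27% of all genes higher and 13.3% lower. At 8 h LTB was at least 2-fold higher, with 4.35% of all genes higher and 10.2% lower. The 8 h shares depended on the minimum, with 8.07% higher at 1 UMI and 2.21% higher and 5.82% lower at 100 UMIs. Nothing is read from these counts, since the genes were chosen with these contrasts known. The median of all genes compared in this gate was -0.57, -0.22 and -0.10 (log2). Relative to that median the 2 h differences were larger: scaling by TMM moved the median gene by 0.45 and gave 1.64 for TNF and 4.04 for TNFAIP6, in place of 1.15 and 3.55.

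Many UMIs of both genes came from cells outside the 4 gates. The CD14 gate held 39.7%, 22.0%, 10.5% and 17.2% of all TNF UMIs, and cells with no gate marker held 21.2%, 24.0%, 19.1% and 25.7%. For TNFAIP6 the CD14 gate held 64.4%, 36.8%, 14.1% and 9.89%, and cells with no marker 7.34%, 27.8%, 45.2% and 63.7%. The source of TNFAIP6 UMIs therefore moved from the CD14 gate to cells without a gate marker over the series of times. The number of CD14-gated cells was lower at each later time, and the part of this in the shares was not tested. At 2 h a single cell with no gate marker held 134 of the 590 TNF UMIs of such cells.

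**Figure D3:**
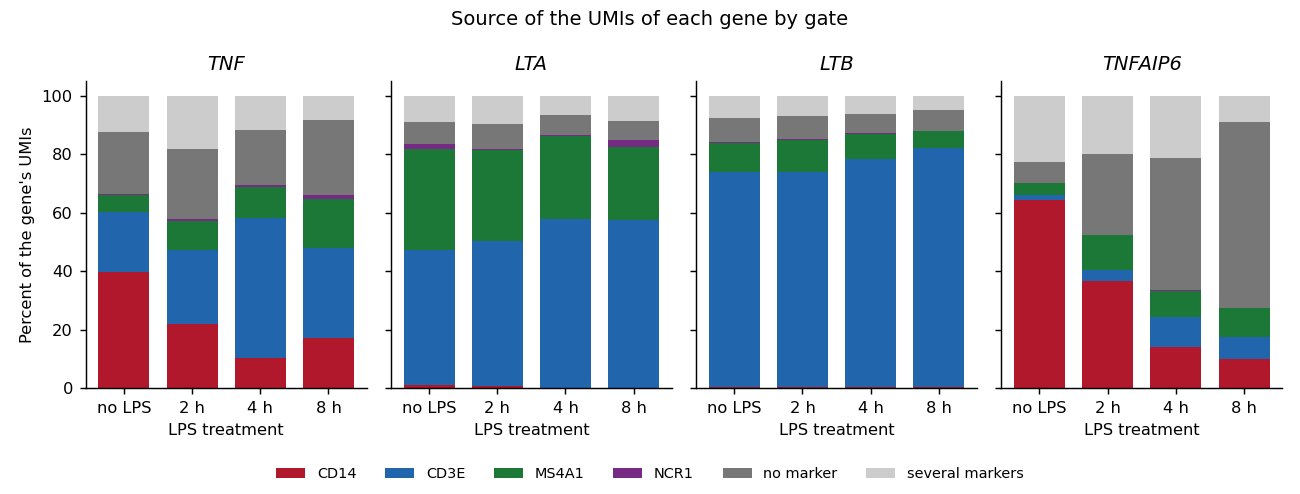
Percent of the UMIs of each gene (stacked bars adding to all kept cells) by gate and LPS treatment, 1 library per bar. For TNFAIP6 the CD14 part was 64.4% without LPS and 9.89% at 8 h, while the CD3E gate held 73.4% to 81.9% of LTB UMIs.

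Cells with no gate marker were divided, with the data in view, by CSF3R, the receptor of granulocyte colony-stimulating factor. The CSF3R-positive cells numbered 67, 132, 106 and 42, with a median of 1061 to 1654 UMIs. Besides CSF3R they carried CXCR1, the interleukin 8 receptor of neutrophils, at 835, 530, 766 and 551 CPM, and TYROBP, an adaptor of myeloid receptors, at 3205, 883, 981 and 1404 CPM. TYROBP is on the monocyte list as well, as is CD68, a lysosomal protein of macrophages, which was at 804, 289, 473 and 832 CPM. The summed monocyte list was at 4040, 1205, 1459 and 2256 CPM, although CSF1R, CD163 and FCGR1A of that list were at 0 in all 4 libraries. The neutrophil granule gene MMP8 was at 0 too. Of the dendritic cell list CLEC9A and XCR1 were at 0, while BATF3 was at 3038 to 4607 CPM. The summed T cell markers were at 20.9, 17.0, 34.2 and 104 CPM. Plasma cell markers stood at 3466 CPM without LPS and at 72.1, 73.2 and 83.2 CPM after it, so the set without LPS differed in make-up from the others.

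After LPS, the TNFAIP6 level in CPM was higher in these CSF3R-positive cells than in any gate. Its level was 52.2 CPM (16.9 to 122, 5 UMIs), 1175 (1041 to 1322), 517 (424 to 626) and 374 (262 to 518). Ratios to no LPS were 22.5 (9.53 to 69.9), 9.91 (4.12 to 31.2) and 7.17 (2.80 to 23.4), and the part of the different make-up of the no LPS set in them was not tested. The share of CSF3R-positive cells with a TNFAIP6 UMI was 4.48%, 38.6%, 36.8% and 19.0%. In the CD14 gate, where cells had a median of 10729 to 15172 UMIs, that share was 7.29%, 42.7%, 23.5% and 14.9%. At 2 h the share was thus not above that of the CD14 gate. The part of the lower depth of CSF3R-positive cells in the CPM ratios was not tested. Against the CD14 gate of the same library, the level at the 3 LPS times was 5.50 (4.78 to 6.33), 9.99 (7.18 to 14.0) and 24.9 times as high (11.8 to 58.8). At 8 h 1 cell held 19 of the 36 UMIs, and without it the level was 182 CPM. Cells with no gate marker and no CSF3R were at 2.15, 58.1, 19.4 and 14.6 CPM.

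TNF in CSF3R-positive cells was at 52.2, 327, 63.4 and 72.8 CPM. Of the 77 UMIs at 2 h 1 cell held 56, and without it the level was 95.3 CPM. No LTA UMI was found in these cells in any library, which allows up to 38.5, 15.7, 18.0 and 38.4 CPM, so a level like that of T cells was not detectable at this depth. LTB was high in CPM, at 1054 (859 to 1281), 458 (376 to 553), 830 (710 to 964) and 1404 (1177 to 1661). It was found in 40.3%, 37.1%, 49.1% and 52.4% of the cells. In the deeper cells of the CD3E gate, LTB was found in 74.7%, 78.9%, 83.7% and 77.6%. The LTB level of CSF3R-positive cells in CPM was 1.86 times that of the CD3E gate (1.52 to 2.27), 0.766 (0.628 to 0.926), 1.15 (0.981 to 1.34) and 1.83 (1.53 to 2.17). Without the cell with the most LTB UMIs the levels were 951, 422, 779 and 1187 CPM. The summed T cell markers of these cells were well below those of the CD3E gate, which were at 714, 632, 667 and 670 CPM.

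**Figure D4:**
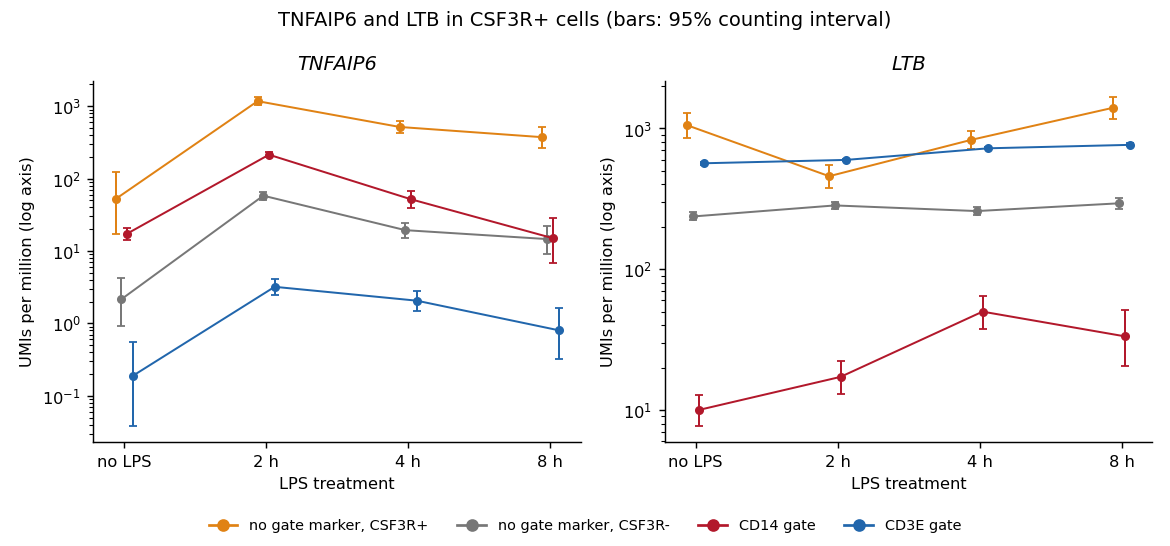
TNFAIP6 (left) and LTB (right) in CPM (log axis) in CSF3R-positive and CSF3R-negative cells without a gate marker and in the CD14 and CD3E gates, with 95% counting intervals and 1 library per point. In CSF3R-positive cells TNFAIP6 was at 1175 CPM at 2 h, and LTB was at 458 to 1404 CPM, or 0.766 to 1.86 times the level of the CD3E gate.

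In CD3E-gated cells TNF and LTA differed in the same direction at 2 h and 4 h. TNF was at 15.1 CPM (13.2 to 17.1), 28.2 (26.0 to 30.5), 25.8 (23.6 to 28.1) and 17.0 (14.4 to 19.9). LTA was at 6.07 CPM (4.93 to 7.41), 10.9 (9.54 to 12.3), 11.1 (9.70 to 12.7) and 5.28 (3.86 to 7.04). For both genes the 2 h and 4 h intervals overlapped each other and lay above those without LPS and at 8 h. The TNF ratio to no LPS was 1.87 (1.61 to 2.18), 1.71 (1.46 to 2.00) and 1.13 (0.911 to 1.39). The LTA ratio was 1.79 (1.41 to 2.29), 1.83 (1.44 to 2.35) and 0.869 (0.598 to 1.25). No CD3E-gated cell held over 3 LTA UMIs or over 10 TNF UMIs. At least 50% of the TNF UMIs lay in 84 of 3640, 163 of 5012, 146 of 3899 and 35 of 1659 cells. For LTA they lay in 39, 97, 92 and 21 cells. As for TNF in the CD14 gate, this was a small part of the gate. The share of CD3E-gated cells with an LTA UMI was 2.39%, 4.33%, 5.18% and 2.65%, or 1.23%, 2.22%, 2.24% and 1.09% after thinning. In CD14-gated cells LTA had 2, 3, 0 and 0 UMIs.

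RNA of monocyte markers in the CD3E gate gives a measure of transcripts from monocytes. B cell markers in this gate stood higher, at 9.52%, 7.79%, 10.5% and 11.9% of the MS4A1 gate. NK cell markers stood at 26.7%, 28.3%, 28.9% and 29.3% of the NCR1 gate. The part of B or NK cells in the TNF and LTA of the CD3E gate was not tested. The TNF level of the CD3E gate was 21.3%, 17.8%, 25.3% and 12.2% of that of the CD14 gate, where the monocyte markers stood at 0.682%, 0.618%, 0.571% and 1.34%. For TNFAIP6 the same share was 1.09%, 1.5%, 3.98% and 5.34%, above the markers and below the TNF share in every library. After LPS the level of TNFAIP6 was higher in CSF3R-positive cells than in the CD14 gate. The part of RNA from other cells in either gene was not tested. TNFAIP6 in CD3E-gated cells was at 0.188, 3.20, 2.06 and 0.803 CPM, from 3, 71, 41 and 7 UMIs. The 23 cells with TNFAIP6 at 2 h had neutrophil, monocyte and dendritic cell markers at 240, 178 and 597 CPM, against 2.27, 15.6 and 12.9 in the other CD3E-gated cells. The dendritic list does not single out dendritic cells here, since in the CD14 gate at 2 h BATF3 gave 4425 of its 4438 UMIs. At 4 h 1 cell held 28 of the 41, and without it the level was 0.654 CPM. In the CD3E gate TNFAIP6 was the 1 gene of the 4 that was at least 2-fold higher at 2 h (0.715% of all genes higher and 0.251% lower) and at 4 h (1.06% and 0.720%), and none was at 8 h (0.846% and 0.375%). Those differences were 1.82 and 1.37 (log2). They were 0.37 and 0.24 with a pseudocount of 10 CPM, and the 4 h value was 0.56 without the cell with the most UMIs in each library, so that neither call held.

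At the 3 LPS times TNF was higher in T cells with LTA than in those without it. Among CD3E-gated cells with LTA the TNF level was 14.0 CPM, 62.3, 40.5 and 57.6. Among those without LTA it was 15.1, 26.4, 24.8 and 15.6 CPM. The intervals of the 2 sets did not overlap at the LPS times. The cells with LTA numbered 87, 217, 202 and 44 and held 6, 68, 47 and 16 TNF UMIs. Those UMIs lay in 5, 43, 37 and 6 cells, so the interval at 8 h is too narrow. The median UMIs of the cells with LTA were 4525, 4255, 5234 and 5928, slightly above those of the cells without it (4064, 4091, 4734 and 5171).

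By T cell marker, TNF was higher in CD4-positive than in CD8-positive cells of the CD3E gate, at 17.6, 31.5, 27.9 and 21.0 CPM against 13.2, 19.6, 16 and 10.1. Their intervals did not overlap at 2 h and 4 h, overlapped without LPS and met at 8 h. Cells with neither marker had TNF at 12.9, 29.2, 27.7 and 16.4 CPM, with intervals that overlapped those of CD4-positive cells in every library. LTA was highest in CD3E-gated cells with neither marker, at 7.34, 13.2, 13.4 and 7.17 CPM, against 4.39, 8.35, 9.31 and 4.59 in CD4-positive cells. Those intervals did not overlap at 2 h only. Cells with CD69, an early activation marker, had TNF at 16.5, 37.3, 30.4 and 32.8 CPM, and those without it at 14.9, 26.2, 24.7 and 14.1. The intervals of the CD69-positive and CD69-negative cells did not overlap at 2 h and 8 h and overlapped in the other 2 libraries.

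Among the gates LTB was by far most abundant in CD3E-gated cells, where it differed little and was highest at the late times. Its level was 566 CPM (554 to 578), 598 (588 to 608), 723 (711 to 735) and 765 (747 to 784). Ratios to no LPS were 1.06 (1.03 to 1.09), 1.28 (1.24 to 1.31) and 1.35 (1.31 to 1.40). The 4 intervals did not overlap, but none of the ratios reached 2-fold. It was detected in 74.7%, 78.9%, 83.7% and 77.6% of the cells, or 58.0%, 61.4%, 65.2% and 66.3% after thinning. CD4-positive cells had 636, 662, 799 and 862 CPM and CD8-positive cells 483, 439, 597 and 594. LTA was higher in CD3E-gated cells with LTB than in those without it at 2 h (12.0 against 5.67 CPM) and at 4 h (12.5 against 2.80), but not at 8 h (5.25 against 5.44, from 39 and 7 UMIs).

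The B and NK cell gates went the other way for LTB. In MS4A1-gated cells it was at 152, 153, 134 and 111 CPM, with ratios to no LPS of 1.01 (0.942 to 1.09), 0.883 (0.819 to 0.952) and 0.735 (0.660 to 0.818). T cell markers in this gate stood at 7.99%, 6.89%, 4.45% and 8.93% of the CD3E gate, and LTB at 26.8%, 25.7%, 18.5% and 14.6%. Scaling by TMM moved the median gene of this gate by 0.11 at 2 h and 0.13 at 4 h and left the 4 h difference of LTB at -0.04 (log2) in place of -0.18. B cells with CD83, an activation marker, had a lower LTB level than those without it in every library, at 127, 150, 117 and 74.7 CPM against 165, 164, 182 and 176. At 2 h those 2 intervals overlapped. The cells with CD83 were deeper, with medians of 4412, 4643, 5749 and 6438 UMIs against 3686, 3595, 4230 and 3350. After thinning, LTB was found in 23.1%, 24.1%, 20.9% and 13.7% of them, against 23.9%, 21.6%, 23.2% and 22.0%, so the share was higher with CD83 at 2 h. In NCR1-gated cells LTB was at 126, 84.5, 57.1 and 22.4 CPM, from 40, 42, 30 and 6 UMIs. The NCR1 ratio was 0.671 (0.425 to 1.06), 0.454 (0.273 to 0.747) and 0.178 (0.0617 to 0.422). Summed T cell markers in the NCR1 gate stood at 50.2%, 52.2%, 46.3% and 47.3% of the CD3E gate, and LTB at 22.2%, 14.1%, 7.91% and 2.93%. That sum came from 114, 164, 162 and 85 UMIs of part of the list. CD28 had no UMI in any library, CD3G none without LPS and at 4 h, and CD6 none at 2 h and 4 h. CD5 had none at 4 h and CD3D none at 8 h. The sum is therefore not a measure of the share of T cell RNA in the NCR1 gate. The part of T cell RNA in the LTB of the MS4A1 and NCR1 gates was not tested.

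In CD14-gated cells LTB was at 10.0, 17.2, 50 and 33.4 CPM, or 4.99 times no LPS at 4 h (3.42 to 7.24) and 3.33 times at 8 h (1.91 to 5.57). T cell markers in this gate stood at 1.51%, 0.970%, 1.23% and 1.49% of the CD3E gate, and LTB at 1.77%, 2.88%, 6.91% and 4.36%. The neutrophil markers given above were highest at 4 h, the time when LTB was highest. At 8 h 1 cell held 12 of the 20 UMIs, and without it the level was 13.7 CPM. With the monocyte markers in place of CD14, the levels were 10.3, 11.1, 16 and 35.4 CPM, and the 4 h difference was 0.58 (log2) in place of 2.21, below 2-fold. The 8 h difference of 1.64 was 0.49 without the cell with the most UMIs and 0.25 in a stricter gate (CD14 at 5 or more UMIs and no UMI of the other markers). The part of CSF3R-positive cells in the LTB of this gate was not tested.

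In MS4A1-gated cells TNF was at 8.56, 19.2, 9.63 and 19.2 CPM, with ratios of 2.25 (1.71 to 2.97), 1.13 (0.828 to 1.54) and 2.24 (1.61 to 3.13). LTA was at 8.92, 12.0, 9.29 and 4.73 CPM, with ratios of 1.35 (1.01 to 1.81), 1.04 (0.767 to 1.42) and 0.530 (0.306 to 0.880). At 8 h TNF was therefore above and LTA below the no LPS level. TNFAIP6 was at 0.856, 19.0, 3.07 and 2.13 CPM, and at 2 h its 240 UMIs lay in 36 of 2445 cells, 50 of them in 1 cell. Those 36 cells had monocyte markers at 408 CPM and neutrophil markers at 240, against 27.2 and 4.69 in the other cells, while B cell markers were at 1013 against 1425. In this gate TNF and TNFAIP6 were at least 2-fold higher at 2 h (2.52% of all genes higher and 1.70% lower), TNFAIP6 at 4 h (2.70% and 4.79%) and TNF at 8 h (2.05% and 1.65%). The TNF difference was 1.08 (log2) at both times. It was 0.65 at both with a pseudocount of 10 CPM, 0.55 at 2 h with cells weighted equally and 0.30 at 8 h with no upper limit on genes per cell, so that both calls ended. The TNFAIP6 difference was 3.43 at 2 h, with a lowest value of 1.42 among the alternatives. At 4 h it was 1.13 with a lowest value of 0.27, so that the 4 h call of TNFAIP6 ended as well. Without LPS 1 cell held 17 of the 70 TNF UMIs. In NCR1-gated cells TNF had 4, 18, 5 and 7 UMIs, LTA 3, 1, 1 and 2, and TNFAIP6 0, 0, 2 and 0. These are too few to order the libraries.

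Genes of the TNF pathway were taken from a list of 27, of which 25 passed the minimum in the CD14 gate and 24 in the CD3E gate at each time. In the CD14 gate 8 of them at 2 h, 7 at 4 h and 4 at 8 h were at least 2-fold higher, and 3, 1 and 2 were lower. The shares of all genes in this gate were 4.11%, 5.27% and 4.35% higher and 22.3%, 13.3% and 10.2% lower. Their median difference was 0.25, 0.33 and 0.07 (log2), beside the medians of all genes given above. In the CD3E gate 6, 4 and 2 were higher and 1, 1 and 0 lower, where 0.715%, 1.06% and 0.846% of all genes were higher and 0.251%, 0.720% and 0.375% lower. The medians were 0.25, 0.21 and 0.15 beside -0.02, -0.01 and 0.04 for all genes. TNFRSF14, a receptor of lymphotoxin alpha, was not found by name.

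Among the receptors, none of the 3 with values was called 2-fold different on log2(CPM + 1) in either gate. TNFRSF1A, the receptor with a death domain, was at 320, 167, 214 and 251 CPM in CD14-gated cells. TNFRSF1B, the second TNF receptor, was at 1384, 1085, 1283 and 1286 CPM. LTBR, the receptor of the lymphotoxin heterotrimer, was at 179, 90.0, 104 and 115 CPM, while in the CD3E gate it had 6 to 15 UMIs per library. All 3 were lower than without LPS at 2 h by less than 2-fold, and the 2 h value of the median gene was also lower. ADAM17, the protease that sheds TNF, was at 24.3, 22.2, 29.1 and 20.0 CPM, and its 3 ratios to no LPS had intervals that included 1.

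Adaptors and targets of the receptors were among the genes that were higher. BIRC3, a ubiquitin ligase of the receptor complex, was at 146, 915, 450 and 324 CPM in CD14-gated cells. TRAF1, an adaptor, was at 52.2, 172, 121 and 95.2 CPM, and in the CD3E gate at 15.7, 49.1, 44.0 and 24.7. TNFAIP3, the deubiquitinase that limits NF-κB signalling, was at 292, 1261, 951 and 630 CPM in the CD14 gate. NFKBIA, the inhibitor of NF-κB, was at 2690, 5786, 5456 and 3073 CPM, and in the CD3E gate at 272, 822, 662 and 434. ICAM1, an adhesion molecule, was at 63.1, 162, 149 and 135 CPM in the CD14 gate. ZC3H12A, an RNase that degrades cytokine mRNAs, was at 29.9, 151, 115 and 76.8 CPM. BIRC2, a relative of BIRC3, was at 44.2, 110, 73.6 and 60.1 CPM and passed 2-fold at 2 h. The adaptor TRADD (15.0, 6.43, 8.18 and 8.35 CPM) and the kinase subunit IKBKG (20.6, 8.47, 24.5 and 21.7 CPM) were at least 2-fold lower at 2 h and not called at the later times.

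Of the partners of TNFAIP6 in the hyaluronan matrix, PTX3, a secreted pentraxin, was at 3570, 15188, 8453 and 5716 CPM in CD14-gated cells. HAS2, a hyaluronan synthase, was at 22.0, 0.584, 10.9 and 0 CPM, from 145, 2, 12 and 0 UMIs. VCAN, a hyaluronan-binding proteoglycan, was at 1421, 743, 335 and 631 CPM. CD44, the hyaluronan receptor, was at 408, 545, 560 and 494 CPM. In the CD3E gate PTX3 was at 21.6, 133, 57.3 and 124 CPM, a small part of its CD14 gate level. Monocyte markers in the CD3E gate stood at 0.682%, 0.618%, 0.571% and 1.34% of the CD14 gate. The part of monocyte RNA in the PTX3 of the CD3E gate was not tested.

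The genes whose levels moved most like each of the 4 were found by Pearson's r of log2(CPM + 1) over 16 sums (4 gates in 4 libraries) among 9644 genes with at least 200 UMIs. The sums of a gate share cell type and those of a library share depth, so r mainly orders gates. For TNF they were ID2, MAPKAPK2, M-SAA3.2, MT2A and CCL20 (0.93 to 0.94), and for TNFAIP6 GPR84, JAK2, IL1A, MEFV and NLRP12 (0.93 to 0.95). For LTA they were MRPS22, DMAP1, ORC3, ATM and YARS2 (0.93 to 0.95), and for LTB SPTAN1, TCP11L2, ZNF286A, RAB11FIP2 and IFI27L2 (0.92 to 0.94). Between the 4 genes r was 0.73 for TNF with TNFAIP6, 0.68 for LTA with LTB and -0.78 for TNF with LTA. The LTA sums of the CD14 and NCR1 gates held 0 to 3 UMIs, and the TNFAIP6 sums of the NCR1 gate 0 to 2. Values of r with these genes rest in part on sums near the floor.

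The scATAC-seq assay cuts open chromatin with a transposase and counts the fragments of each nucleus. The no LPS library held 975012 counts in 3121 barcodes, with a median of 213 per barcode, and the LPS libraries held 30250143, 26837579 and 11957904 counts with medians of 5171, 5205 and 2250. Raw detection followed that depth. TNF had a count in 1.12%, 13.8%, 14.1% and 6.86% of barcodes, LTA in 0.417%, 14.8%, 16.8% and 6.77%, and LTB in 0.577%, 16.2%, 14.8% and 6.67%. MS4A1 went the same way, at 2.63%, 23.7%, 23.4% and 13.5%.

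Scaled to a total of 1000000 counts per library (CPM), the same data showed no such excess for TNF. TNF was at 66.7, 49.7, 49.0 and 39.9 CPM, LTA at 24.6, 54.9, 57.0 and 42.8, and LTB at 30.8, 60.1, 48.7 and 38.7. The no LPS values rest on 65, 24 and 30 counts in 35, 13 and 18 barcodes. For TNF, LTA and LTB at 2 h and 4 h, most values above 0 were even numbers (93.9% to 98.9%), so counts are not independent and no interval is given. Among the 11573 to 13821 genes listed per library, TNF, LTA and LTB ranked 5854 to 8950 from the top, with the median gene at 67.7, 50.9, 54.1 and 64.6 CPM. TNFAIP6 was listed at 2 h (196 counts in 109 barcodes, 6.48 CPM) and at 4 h (134 in 78, 4.99 CPM) and not listed in the other 2 tables.

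**Figure D5:**
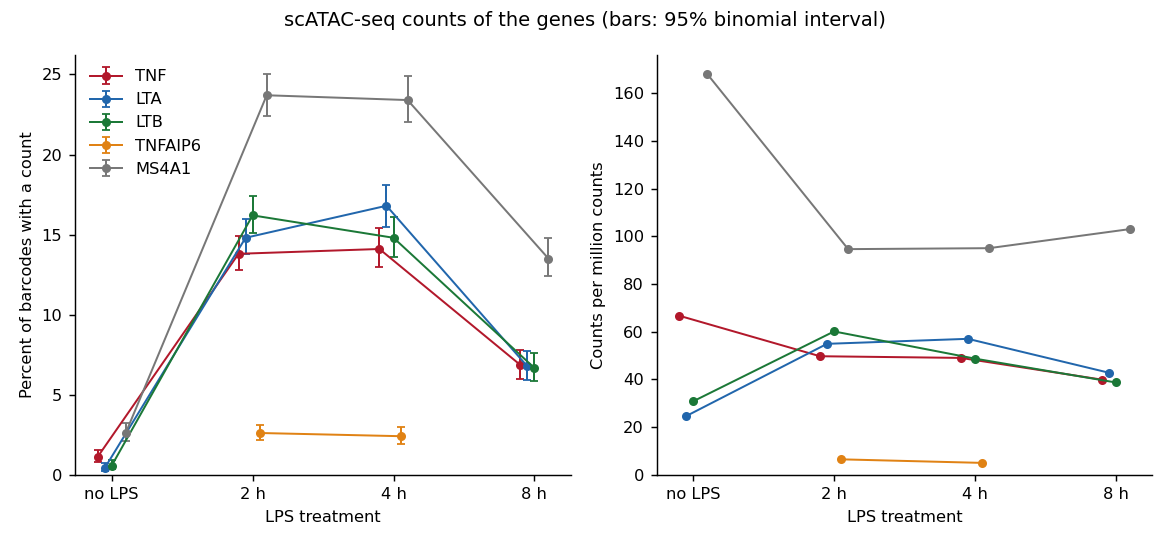
scATAC-seq values of TNF, LTA, LTB, TNFAIP6 and, for comparison, MS4A1 against LPS treatment, as percent of barcodes with a count (left, 95% binomial interval) and CPM (right), 1 library per point. The left panel follows the depth of the libraries, while in CPM TNF was at 66.7 without LPS and 39.9 at 8 h.

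TNF and LTA counts overlapped in part of the nuclei. At 2 h 577 barcodes had a TNF count, 619 an LTA count and 150 both, which is 26.0% and 24.2% of each. TNF had a count in 24.2% of barcodes with LTA and 12.0% of those without it. TNF and MS4A1, which lie apart, shared 203 barcodes, 35.2% and 20.5% of each. Barcodes with an LTA count were deeper, with a median of 9255 counts against 4599 for those without. CD3E was not listed in any scATAC-seq table and NCR1 at 2 h only, so the 4 gates could not be applied to nuclei. At 2 h, among nuclei with a CD14 count and none for MS4A1 (165), TNF was at 53.4 and TNFAIP6 at 10.9 CPM, from 83 and 17 counts. Among those with an MS4A1 count and none for CD14 (883), they were at 52.6 and 5.12 CPM, from 483 and 47 counts.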

How the data were processed

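The authors deposited UMI counts per gene and cell barcode (Cell Ranger on ARS-UCD1.2, per the labels) and scATAC-seq counts per gene and barcode, whose counting rule is not given in the sources used here. Neither was normalized. There was 1 library per treatment and assay, so no test was made. The 4 genes and all lists were chosen with earlier results of these data known. Cells were filtered and gated as described, and UMI sums were scaled to CPM (pseudocount 1 on the log2 scale) in Python 3.11.15 with numpy 2.4.6 and scipy 1.17.1. The genes named are the 4 members, the genes of a TNF pathway list of 27 that were at least 2-fold different in the CD14 or CD3E gate, with its receptors and other members of the same roles, and the 5 genes most like each member. TYROBP, BATF3 and other markers named for CSF3R-positive cells, ADAM17 and CD44 were named after their values were seen. Thinned shares are the expected shares after drawing 2000 UMIs per cell. Doublets were not called, and cells positive for several markers were kept out of the gates. Factors from edgeR 4.0.16 (TMM) and DESeq2 1.42.0 (R 4.3.3) served only as alternative scalings. The ratio, call and likeness steps were tested on simulated data. Kept cells held 38503367, 47875879, 40160248 and 16657841 UMIs. Gene neighbours were read from RefSeq (ARS-UCD2.0).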

Additional observations from a re-analysis of the deposited data

Results flagged for a closer look

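LTB differed from no LPS in opposite directions between gates, with intervals on both sides that left out 0. At 4 h the log2 difference was 0.35 in CD3E-gated and 2.21 in CD14-gated cells but -0.18 in MS4A1-gated and -1.13 in NCR1-gated cells. At 8 h it was 0.43 and 1.64 against -0.44 and -2.44. With 1 library per treatment the difference between the gates was not tested. By TMM the MS4A1 value at 4 h was -0.04. The CD14 value was 0.58 at 4 h with at least 3 monocyte markers in place of CD14, and 0.25 at 8 h in the stricter gate. The CD14 and NCR1 values rest on 6 to 66 UMIs per library. The part of T cell RNA in the MS4A1 and NCR1 values was not tested.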

How the results depend on the processing

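No paired analysis was possible because each treatment had 1 library. Values are log2 differences from no LPS unless a unit is given. For TNF in the CD14 gate at 2 h (1.15), TMM gave 1.64, DESeq2 size factors 1.73, no upper limit on genes 1.39, every gate marker at 1 UMI 1.41 and at least 3 monocyte markers 1.52. TNF at 4 h (0.52) was 0.20 with cells weighted equally and -0.05, a reversal, without the cell with most UMIs. TNF at 8 h (0.96) was 0.34 with no upper limit on genes and 0.58 without that cell. TNFAIP6 in the CD14 gate at 2 h (3.55) was 4.04 by TMM, 4.12 by DESeq2 factors, 3.03 with a pseudocount of 10 CPM and 4.02 with cells weighted equally. At 4 h (1.53) it was 3.47 with cells weighted equally and 0.43 with the monocyte markers. LTA in the CD3E gate (0.75 at 2 h and 0.78 at 4 h) was 0.38 and 0.39 with a pseudocount of 10 CPM. LTB in the CD3E gate at 8 h (0.43) was 0.39 by TMM, 0.38 by DESeq2 factors and 0.32 with cells weighted equally. The leave-out of a cell and the monocyte marker gate were chosen after the data were seen. The mitochondrial limit of 10% and at least 2000 UMIs per cell kept all 36 differences within their intervals. Keeping scATAC-seq barcodes with at least 500 counts removed none from the LPS libraries and left 352 without LPS, where TNF, LTA and LTB were then at 58.9, 35.3 and 32.4 CPM in place of 66.7, 24.6 and 30.8. Calls of TNFAIP6 in the CD3E gate, TNF and TNFAIP6 in the MS4A1 gate and LTB in the CD14 gate that ended under an alternative are given beside those values. Of the shares of all genes called, that at 8 h in the CD14 gate (4.35% higher and 10.2% lower) was 8.07% higher with a minimum of 1 UMI and 2.21% and 5.82% with 100 UMIs, and in the CD3E gate at 8 h 0.375% lower was 0.247% with 100 UMIs. Other causes of these shifts were not tested. The CD14 gate at 8 h (47 cells) and the NCR1 gate limit what can be seen.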

Other observations

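FOXP3-positive CD3E-gated cells, FOXP3 being the factor of regulatory T cells, numbered 13, 19, 15 and 5 (no LPS, 2 h, 4 h and 8 h). Their LTB was at 1023 CPM (781 to 1317), 795 (634 to 984), 438 (305 to 609) and 507 (290 to 823). Their TNF was at 68.2 (18.6 to 175), 37.8 (10.3 to 96.9), 0 and 0 CPM, where the 0 values allow up to 46.1 and 117. The 2 values above 0 rest on 4 UMIs each, too few to order the libraries for TNF.

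CD14-positive cells above the limit of 3000 genes, which stood outside the gates, numbered 86, 34, 15 and 23. Their TNF was at 39.9, 185, 93.6 and 28.4 CPM and their TNFAIP6 at 13.7, 156, 50.7 and 8.53 CPM. At 2 h 1 such cell held 127 of the 224 TNF UMIs.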
